A study of Mus musculus with 24 samples.

Results

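The interneuron marker genes of the striatum were followed in R6/1 mice, a model of Huntington's disease, given an inhibitor of 2 histone deacetylases. They are 10 genes chosen by symbol: Pvalb, Sst, Npy, Nos1, Chat, Slc18a3, Slc5a7, Calb2, Kit and Th. All 10 were found by name among the 24340 genes that the 6 deposited tables share. R6/1 mice were hemizygous for a transgene with exon 1 of human HTT carrying an expanded CAG repeat, on a C57BL/6J background, and their wild type (WT) littermates served as controls. All animals were male. RGFP109, which inhibits HDAC1 and HDAC3, was injected into the abdomen at 30 mg/kg, and vehicle was dimethyl sulfoxide in saline. Injections were given 5 times a week for 3 weeks, 23 days in all, beginning at 11 to 14 weeks of age, and the striatum was taken 18 h after the last one, so that all groups, the controls included, had been injected. RNA of bulk striatal tissue, dissected from a single hemisphere of each brain, was sequenced from 5 WT-vehicle, 6 R6/1-vehicle, 6 WT-RGFP109 and 7 R6/1-RGFP109 libraries.

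The deposited values are FPKM, the fragments of a gene scaled to its exon length and to the mapped fragments of the library, with 1 value per group in each table. No value per library was used, so no spread within a group, no interval and no test between groups can be given, and every difference here is a description of group values. The sequencing depth is unknown from such values. Each group stands in 3 tables, and its copies differed by a common factor of 1.00 to 1.04, so levels are given on the scale of the vehicle table. Folds are log2 ratios of FPKM + 0.05 from the table that holds both groups, and "past the fold" means a log2 fold beyond 0.5 in either direction, or 1.41-fold. In bulk tissue, fewer cells of a type and less RNA per cell cannot be told apart.

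Most neurons of the striatum are GABAergic projection neurons, and interneurons are a small minority that shapes their firing. Fast-spiking interneurons make parvalbumin (Pvalb), a calcium-binding protein. A second GABAergic class makes the peptides somatostatin (Sst) and neuropeptide Y (Npy) together with neuronal nitric oxide synthase (Nos1). Cholinergic interneurons make acetylcholine with choline acetyltransferase (Chat), take up choline with the transporter encoded by Slc5a7, and load acetylcholine into vesicles with the transporter encoded by Slc18a3. Calretinin (Calb2) and tyrosine hydroxylase (Th), the rate-limiting enzyme of catecholamine synthesis, mark further, sparser interneurons, and Kit encodes the receptor for stem cell factor. None of these genes is exclusive to interneurons of the striatum: several are also used by cortical interneurons, Calb2 by other brain regions, and Kit by mast cells.

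The genes lie on 8 chromosomes, and all 10 are annotated as protein-coding. In the mm10 coordinates of the tables, Sst was placed at chr16:23889581-23890844, Npy at chr6:49822729-49829505, Pvalb at chr15:78191118-78206351 and Th at chr7:142892776-142899966. Nos1, at chr5:117866839-117958840, and Kit, at chr5:75574987-75656721, share a chromosome. Slc5a7 was placed at chr17:54273590-54299034 and Calb2 at chr8:110142538-110168206. Chat and Slc18a3 form the cholinergic gene locus and carried the same position in the tables, chr14:32408203-32465909. In the GENCODE M21 annotation of the same build, Slc18a3 is a gene of 1 exon at chr14:32462438-32464850, on the same strand as Chat and inside the first intron of the transcript Chat-201 (chr14:32460914-32465806). It overlaps 0 exons of Chat, but unspliced Chat RNA would cover it, so the Slc18a3 values are uncertain to that extent. An antisense gene each overlaps Chat and Nos1, and the strand used in counting is not given in the sources used here.

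Promoter sequence was held for 9 of the 10 genes, at 11 start sites, in a RefSeq table of the build GRCm38.p6. The cyclic AMP response element (CRE) is shown because it is a well-known control sequence of Sst and Th, a pair of genes that stood apart from each other below. The 250 bases before each start site were searched for the palindrome TGACGTCA and for a shorter form of it, the short site TGACG or its complement CGTCA, which covers both strands. The palindrome contains both forms of the short site, so a window with a palindrome also counts as one with a short site. It was found before 2 of the 9 genes, Sst and Th, for which it was chosen. That count was therefore fixed beforehand and says nothing on enrichment. Of 32851 promoter windows of this length, 1.55% held the palindrome. The short site was found before 5 of the 9, which were Sst and Th, through their palindromes, and Nos1, Chat and Slc18a3. Of all windows, 17.8% held it, a share per window, while the count is per gene over the 11 start sites. As Sst and Th were fixed beforehand, the count of 5 says nothing on enrichment either. The match nearest the start site stands in capitals in 30 bases of each, written 5′ to 3′ on the strand of the gene. The windows are at chr16:23890874-23890903 (minus strand) for Sst, chr7:142900022-142900051 (minus) for Th, chr14:32464882-32464911 (minus) for Slc18a3, chr5:117866697-117866726 (plus) for Nos1 and chr14:32466063-32466092 (minus) for Chat.
Sst: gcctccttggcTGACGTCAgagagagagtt
Th: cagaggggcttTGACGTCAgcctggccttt
Slc18a3: cgagactcaccgCGTCAtagccccaagtgg
Nos1: aaaccagccatgCGTCAggcttggcttcag
Chat: gtccaatctcaaCGTCAccaccacctccaa
The CRE began 48 bases before the start site in Sst and 45 bases before it in Th, and the short site 49 bases before it in Slc18a3. A match of letters is not evidence of binding.

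The marker genes spanned more than 2 orders of magnitude in level, and all were above the minimum of 0.1 FPKM in every group. In WT-vehicle the order from high to low was Sst, Npy, Pvalb, Calb2, Nos1, Kit, Chat, Slc5a7, Th and Slc18a3, from 653 to 3.79 FPKM. The 4 highest genes kept that order in every group. Lower down, Kit stood above Nos1 and Th above Chat in both R6/1 groups, which was not so in either WT group. Whether such neighbours differ beyond the spread of the libraries cannot be told from group values. The sum over the 10 genes, mostly Sst, was 999 FPKM in WT-vehicle and 982 FPKM in WT-RGFP109, against 535 and 528 FPKM in R6/1-vehicle and R6/1-RGFP109.

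**Figure D1:**
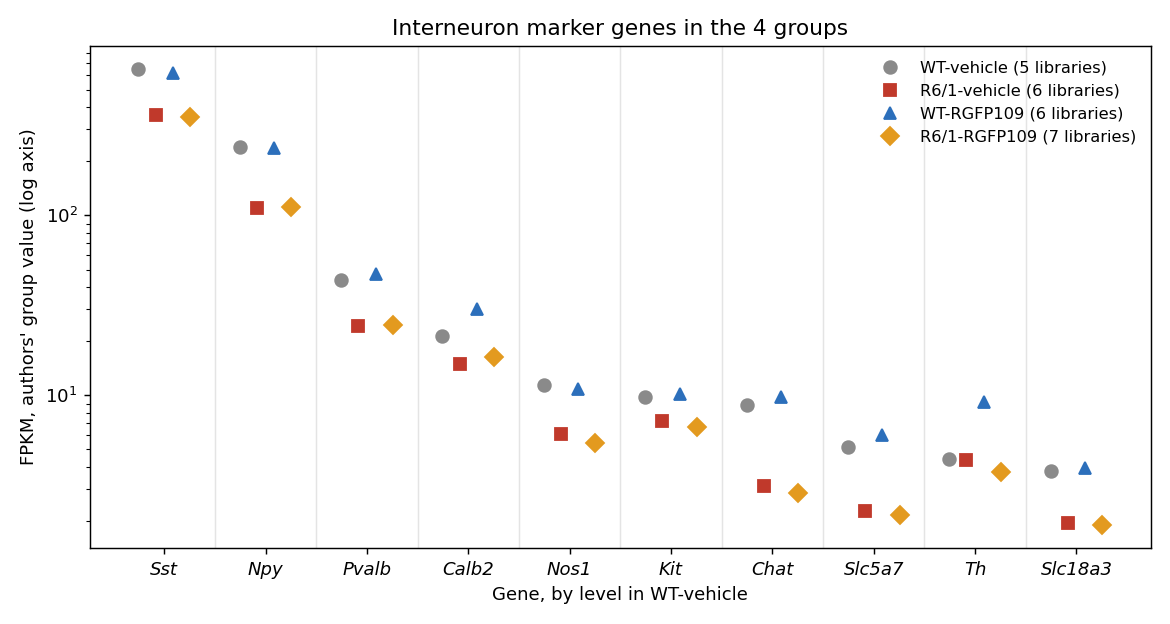
FPKM of each interneuron marker gene (log axis) in the 4 groups, 1 point per group and gene, with genes ordered by their level in WT-vehicle; points are the authors' group values on 1 scale, with no error bars because no library values were used. Both R6/1 points lie below both WT points for all 10 genes, though for Th the R6/1-vehicle point, 4.36 FPKM, is close to the WT-vehicle point, 4.45 FPKM.

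The first question was how the interneuron genes differ between genotypes without the drug. In R6/1-vehicle over WT-vehicle, 8 of the 10 genes were lower past the fold and 0 were higher, where 13.4% of the 16972 genes above the minimum were lower and 5.84% were higher. The median log2 fold of the 10 genes was -0.88, against -0.02 over all genes. The exceptions were Kit and Th. Since low genes vary more, the 10 genes were also set against genes of similar level. Between 1 and 10 FPKM, 4 of 6 interneuron genes were lower, against 11.9% of all genes there, and the other 4 genes, at 10 FPKM or more, were all lower, against 8.19% of genes from 10 to 100 FPKM and 16.6% of genes from 100 FPKM.

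The same question could be asked again under RGFP109, in libraries that the vehicle comparison did not use. In R6/1-RGFP109 over WT-RGFP109, 10 of 10 genes were lower past the fold, where 11.7% of 16954 genes were lower, and 0 were higher, where 5.39% of all genes were. The median log2 fold was -1.02, against 0.00 over all genes. Lower past the fold in both genotype comparisons were 8 of the 10 genes, against 7.74% of the 16662 genes above the minimum in both. Both R6/1 groups lay below both WT groups for 10 of 10 genes, an ordering that 37.2% of all genes shared.

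**Figure D2:**
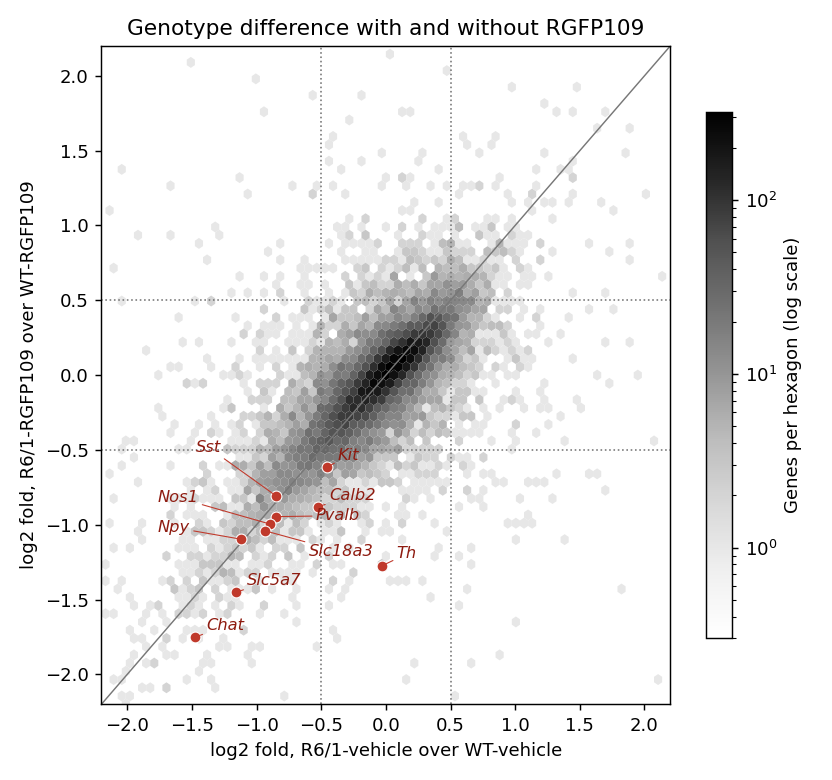
Log2 fold of R6/1 over WT with vehicle (x axis) and under RGFP109 (y axis), for the 10 interneuron marker genes (red, labelled) over the density of all 16437 genes above the minimum in all comparisons (grey hexagons, of which 194 genes lie outside the axes); dotted lines mark log2 folds of 0.5 in either direction and the diagonal marks equal folds. Of the 10 genes, 9 lie within 0.36 of the diagonal and Th lies 1.25 below it.

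The cholinergic genes Chat and Slc5a7 showed the largest genotype differences with vehicle. With vehicle, Chat stood at 8.78 FPKM in WT and 3.13 in R6/1, and under RGFP109 at 9.83 in WT and 2.88 in R6/1. It was thus 2.78-fold lower in R6/1 with vehicle, a log2 fold of -1.47, and 3.37-fold lower under RGFP109, a log2 fold of -1.75. Slc5a7, the choline transporter gene, stood at 5.15, 2.28, 5.99 and 2.16 FPKM in the same order (WT and R6/1 with vehicle, WT and R6/1 under RGFP109). Its log2 folds between genotypes were -1.16 with vehicle and -1.45 under RGFP109. Slc18a3, the vesicular transporter gene, stood at 3.79, 1.96, 3.95 and 1.89 FPKM, which gave -0.93 with vehicle and -1.04 under RGFP109. Both R6/1 groups were low and both WT groups high for all of these genes, but not in one proportion. The ratio of Chat to Slc18a3 FPKM was 2.32 in WT-vehicle and 2.49 in WT-RGFP109, against 1.60 and 1.52 in the R6/1 groups, within the limit that the shared locus sets. The ratio of Chat to Slc5a7 was 1.71 and 1.64 in the WT groups and 1.37 and 1.33 in the R6/1 groups.

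The genes of the somatostatin class differed from WT by nearly the same amount with and without the drug. Sst stood at 653 FPKM in WT and 361 in R6/1 with vehicle, and at 617 and 353 FPKM under RGFP109. The log2 folds between genotypes were -0.85 with vehicle and -0.80 under RGFP109. Npy stood at 238, 110, 237 and 111 FPKM, which gave -1.12 and -1.10. For both peptide genes the groups of one genotype lay close together and far from the other genotype. Nos1, which makes the gas transmitter nitric oxide, stood at 11.4, 6.11, 10.8 and 5.42 FPKM, with log2 folds of -0.90 and -0.99. Npy was lower by more than Sst, so that the ratio of Sst to Npy FPKM was 2.74 and 2.60 in the WT groups and 3.30 and 3.18 in the R6/1 groups.

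Pvalb, the gene of the fast-spiking class, stood at 43.7 FPKM in WT and 24.2 in R6/1 with vehicle, and at 47.2 and 24.5 FPKM under RGFP109. It was 1.80-fold lower in R6/1 with vehicle, a log2 fold of -0.85, and 1.93-fold lower under RGFP109, a log2 fold of -0.95. The vehicle folds of Pvalb and Sst, genes of different classes, were almost equal, and the ratio of Sst to Pvalb was 14.9 in both vehicle groups, 13.1 in WT-RGFP109 and 14.4 in R6/1-RGFP109.

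Calb2 and Kit differed less with vehicle. Calb2 stood at 21.5, 14.9, 30.2 and 16.3 FPKM in the same order, and the WT-RGFP109 group stood above the rest. Its genotype log2 fold was -0.52 with vehicle, just past the fold, and -0.88 under RGFP109. With a pseudocount of 1 FPKM the vehicle value was -0.50, inside the fold, which left 7 of the 10 genes lower. Kit stood at 9.82, 7.15, 10.2 and 6.63 FPKM, which gave -0.45, just inside the fold, and -0.62. The 6 mast cell genes examined beside Kit were at or below 0.1 FPKM in every group, with summed levels of 0.058 to 0.20 FPKM.

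Th did not follow the others. It stood at 4.45 FPKM in WT and 4.36 in R6/1 with vehicle, and at 9.15 and 3.75 FPKM under RGFP109, so that 1 group was high and the other 3 were close together. The genotype log2 fold was -0.03 with vehicle and -1.27 under RGFP109, a difference of -1.25 between them. A genotype fold lower by more than 0.5 under RGFP109 than with vehicle was seen for 1 of the 10 genes, Th, and for 4.12% of all genes. Over all genes the 2 genotype folds differed by a median of 0.11 in size, with a 95th percentile of 0.73. For the other 9 interneuron genes the median was also 0.11, and the largest difference was that of Calb2, -0.36. The vehicle folds of Sst and Th, the genes with the CRE shown above, were -0.85 and -0.03, and a part of the CRE in them was not tested.

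The next comparison asked whether RGFP109 moved the interneuron genes in R6/1 mice. In R6/1-RGFP109 over R6/1-vehicle, 0 of 10 genes passed the fold in either direction, where 3.14% of 16840 genes were lower and 2.62% were higher. The log2 folds ran from -0.21 for Th to 0.13 for Calb2, with a median of -0.06. The genes that differed most between genotypes stayed near their R6/1-vehicle level: the log2 fold was -0.12 for Chat, -0.08 for Slc5a7, -0.05 for Slc18a3, 0.02 for Npy, -0.03 for Sst and 0.02 for Pvalb. Nos1 had a log2 fold of -0.17 and Kit of -0.11. Choroid plexus markers moved in the same comparison, with 7 of 7 lower past the fold and a median log2 fold of -1.89, and neocortex markers with 3 of 8 higher and a median of 0.43. Their part in the interneuron values was not tested.

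In WT mice, RGFP109 went with a higher level of 1 interneuron gene. In WT-RGFP109 over WT-vehicle, Th passed the fold upward, 1 of 10 genes, where 3.19% of 16957 genes were higher, and 0 of 10 passed it downward, where 4.92% were lower. Th was 2.05-fold higher, a log2 fold of 1.03. Calb2 followed at 0.49, just inside the fold, and Slc5a7 at 0.22. The remaining genes were Chat at 0.16, Pvalb at 0.11, Slc18a3 at 0.06, Kit at 0.05, Npy at -0.01, and Sst and Nos1 at -0.08 each.

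**Figure D3:**
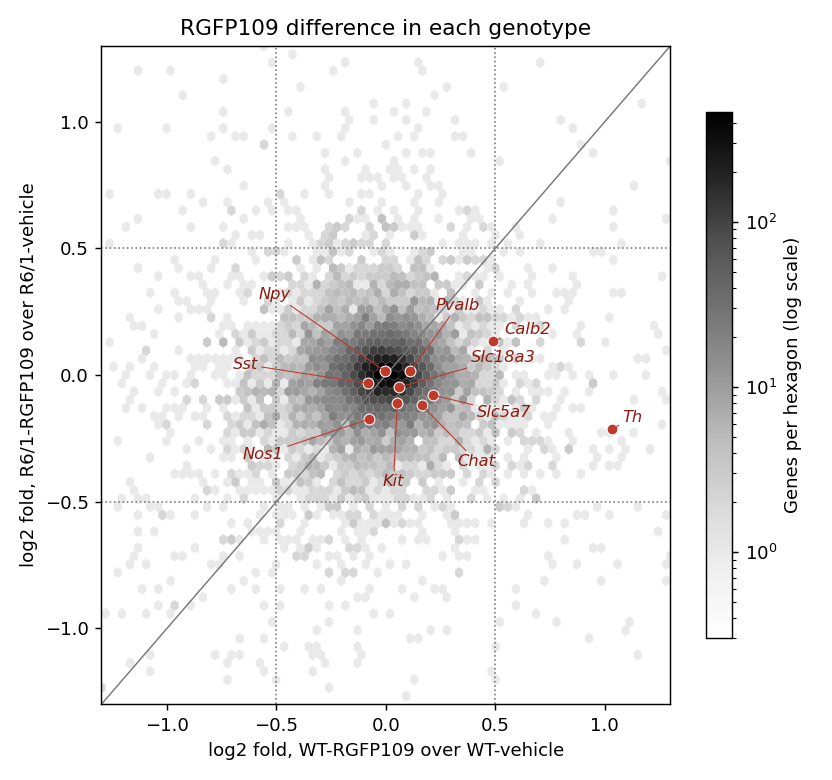
Log2 fold of RGFP109 over vehicle in WT (x axis) and in R6/1 (y axis), for the 10 interneuron marker genes (red, labelled) over the density of all 16437 genes above the minimum in all comparisons (grey hexagons, of which 292 genes lie outside the axes); dotted lines mark log2 folds of 0.5 in either direction and the diagonal marks equal folds. All 10 genes lie between the dotted lines on the y axis, and Th lies beyond them on the x axis at 1.03.

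Genes of other brain parts moved in the WT treatment comparison together with Th and Calb2. Of the olfactory bulb markers, 3 of the 5 above the minimum were higher past the fold, where 3.19% of all genes were. The median log2 fold of the 5 was 0.80. Doc2g stood at 4.52 FPKM with vehicle and 8.47 under RGFP109, Cdhr1 at 2.45 and 4.30 FPKM and Eomes at 0.084 and 0.83 FPKM, while Tbx21 was at or below 0.1 FPKM in every group. The summed level of the 6 olfactory bulb genes was 63.8 FPKM in WT and 58.2 in R6/1 with vehicle, and 78.3 and 56.4 FPKM under RGFP109, highest in the group where Th and Calb2 were highest. Most of that sum was Slc6a11, at 44.6 FPKM in WT-vehicle and 53.6 in WT-RGFP109, a log2 fold of 0.26 that was inside the fold. Reln, the next most abundant, stood at 12.1 and 11.0 FPKM. Of 7 markers of thalamus and other subcortical neurons, which include Calb2, 1 was higher past the fold and 0 were lower, with a median of 0.19. The higher one was Slc17a6, the vesicular glutamate transporter gene of these regions, with a log2 fold of 0.64. Choroid plexus markers were lower for 7 of 7 genes, with a median of -1.70, where 4.92% of all genes were lower. The part of these in the Th and Calb2 values was not tested.

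Other catecholamine genes did not share the pattern of Th as a group, but 2 of them, Slc6a3 and Dbh, did so at very low levels. Of 14 listed genes other than Th, 11 were above the minimum in WT-RGFP109 over WT-vehicle. Past the fold, 2 were higher, against 3.19% of all genes. These were Slc6a3, the dopamine transporter gene, at 0.087 FPKM with vehicle and 0.28 under RGFP109, and Dbh, which makes noradrenaline, at 0.15 and 0.23 FPKM, both at very low levels. Ddc, the enzyme that acts after tyrosine hydroxylase, stood at 6.41 and 5.90 FPKM in that comparison, a log2 fold of -0.12. Pitx3, En1 and Foxa2, transcription factors of midbrain dopamine neurons, were at or below 0.1 FPKM in every group. With vehicle, 2 of 10 catecholamine genes above the minimum were lower in R6/1, against 13.4% of all genes. They were Nr4a2, a nuclear receptor, at -1.11, and Qdpr, which recycles the cofactor of tyrosine hydroxylase, at -0.59. Under RGFP109, 3 of 11 were lower in R6/1, against 11.7% of all genes, and the median log2 fold of the list was -0.13. They were Slc6a3 at -1.03, and Aldh1a1 and Dbh at -0.68 each. Slc6a3 and Dbh were thus, like Th, highest in WT-RGFP109. With vehicle and under RGFP109, the R6/1 groups stood at 0.088 and 0.11 FPKM for Slc6a3 and at 0.15 and 0.13 FPKM for Dbh.

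Lists of genes that accompany the markers in the same interneuron classes were compared next. Of 8 companions of the somatostatin class, 4 were lower past the fold in R6/1-vehicle over WT-vehicle, with a median log2 fold of -0.52, and 5 were lower under RGFP109, with a median of -0.68. Of all genes, 13.4% were lower with vehicle and 11.7% under RGFP109. Cort, which encodes the somatostatin-like peptide cortistatin, stood at 16.1 FPKM in WT-vehicle and 4.14 in R6/1-vehicle, a log2 fold of -1.95. It was followed by Crhbp, which encodes the binding protein of corticotropin-releasing hormone, at -1.30. Tacr1, the substance P receptor, stood at -1.03 and Elfn1, a synaptic adhesion gene, at -0.56. The most abundant companions, Pdyn and Nos1ap, had log2 folds of -0.47 and -0.34. In contrast to Sst and Npy, Cort was higher past the fold in R6/1-RGFP109 over R6/1-vehicle, at 4.14 FPKM with vehicle and 9.49 under RGFP109, a log2 fold of 1.19. Neocortex markers were higher for 3 of 8 genes and lower for 0 in that comparison, with a median of 0.43. Cck and Vip, of the other interneuron classes, stood at 0.48 and 0.41 there, inside the fold, where the median of their list was -0.002. A part of cortical tissue in the Cort value was not tested.

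Of 12 cholinergic companions, 4 were lower and 2 were higher in R6/1 with vehicle, where 13.4% and 5.84% of all genes were. The median log2 fold of the 12 was -0.27. The lower ones included Ecel1, a peptidase gene, at -1.27, and Slc10a4 and Slc17a8, genes of synaptic vesicle transporters, at -0.86 each. Isl1, a transcription factor of cholinergic neurons that young striatonigral neurons also use, stood at 4.51 and 7.20 FPKM, a log2 fold of 0.67. Gbx2 was also higher, at 0.66, from 0.33 FPKM. Ache, the acetylcholine-degrading enzyme and the most abundant of the list, stood at 43.7 FPKM in WT-vehicle and 45.5 in R6/1-vehicle, a log2 fold of 0.06. Under RGFP109, 9 of 12 were lower in R6/1 and 0 were higher, where 11.7% and 5.39% of all genes were. The median of the 12 was -0.88. In WT-RGFP109 over WT-vehicle, 2 of 12 were higher, where 3.19% of all genes were. They were Gbx2 and Ngfr, the low-affinity neurotrophin receptor gene, at 1.14 and 0.66.

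The next 2 lists stand against 13.4% of all genes lower in R6/1 with vehicle and 11.7% under RGFP109. Of 9 fast-spiking and Pthlh companions, 3 were lower in R6/1 with vehicle and 4 under RGFP109, with medians of -0.27 and -0.42. With vehicle these were Pthlh, which encodes parathyroid hormone-related protein, at -1.10, Cox6a2, a mitochondrial subunit, at 13.6 and 6.81 FPKM in WT and R6/1, and Syt2, a calcium sensor of fast release, at -0.98. Cplx1, a release regulator at 336 FPKM in WT-vehicle, had a log2 fold of -0.27, and Kcnc1, a fast potassium channel, of -0.24. Of 10 genes of other interneuron classes, 4 were lower with vehicle and 6 under RGFP109, with medians of -0.45 and -0.65. Vip, a peptide gene used mostly by cortical interneurons, stood at -2.05 with vehicle, Cck at -1.50, Htr3a at -1.10 and Ndnf at -0.52. Lamp5, the second most abundant, stood at -0.42.

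Between treatments, few genes of these lists passed the fold. In R6/1-RGFP109 over R6/1-vehicle the medians of the somatostatin, cholinergic and fast-spiking companions were -0.11, -0.08 and 0.01. The quartiles of all genes were -0.06 and 0.06, so the somatostatin and cholinergic medians lay below the lower one. Cort was the single gene of these lists past the fold upward, and Gbx1, at -0.81 from 0.71 FPKM, the single one downward. In WT-RGFP109 over WT-vehicle the medians were -0.05, 0.21 and 0.17. The quartiles of all genes were -0.10 and 0.08, so the cholinergic and fast-spiking medians lay above the upper one. Of the other interneuron classes, Mia was lower past the fold in both treatment comparisons, at -0.93 in R6/1 and -0.98 in WT. Of the 13 transcription factors, 0 passed the fold in either treatment comparison.

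Transcription factors that specify or maintain interneurons passed the fold at a share near that of all genes. In R6/1-vehicle over WT-vehicle, 2 of 13 were lower, against 13.4% of all genes, and the median log2 fold was -0.11. Under RGFP109, 2 of 13 were lower, against 11.7% of all genes, and the median was -0.08. Lhx6, a factor of the parvalbumin and somatostatin classes, stood at 8.94 FPKM in WT-vehicle and 8.18 in R6/1-vehicle, a log2 fold of -0.13 that became -0.41 under RGFP109. Lhx8, a factor of cholinergic neurons, stood at -0.05 with vehicle and -0.71 under RGFP109. Satb1 was at -0.11 and 0.16. Among the lower ones with vehicle was Npas1 at -0.60, a gene also strong in the globus pallidus. All 4 GABAergic neuron genes, which projection neurons share, were within the fold in both genotype comparisons. Gad1, which makes GABA, stood at 174 and 171 FPKM with vehicle, a log2 fold of -0.03.

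Receptors for the messengers of these interneurons were also compared. Of 11 receptor and ligand genes, 2 were lower in R6/1 with vehicle, against 13.4% of all genes, and 3 under RGFP109, against 11.7%, with medians of -0.35 and -0.23. With vehicle, Sstr2, a somatostatin receptor, stood at 12.7 FPKM in WT and 6.99 in R6/1, a log2 fold of -0.85, and Npy2r, a neuropeptide Y receptor, at 3.76 and 2.16 FPKM, a log2 fold of -0.78. Gucy1b3 and Gucy1a3, subunits of the nitric oxide receptor and the most abundant of the list, stood at 0.12 and -0.08 with vehicle and at -0.11 and -0.64 under RGFP109. Kitl, the ligand of Kit, stood at -0.39.

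**Figure D4:**
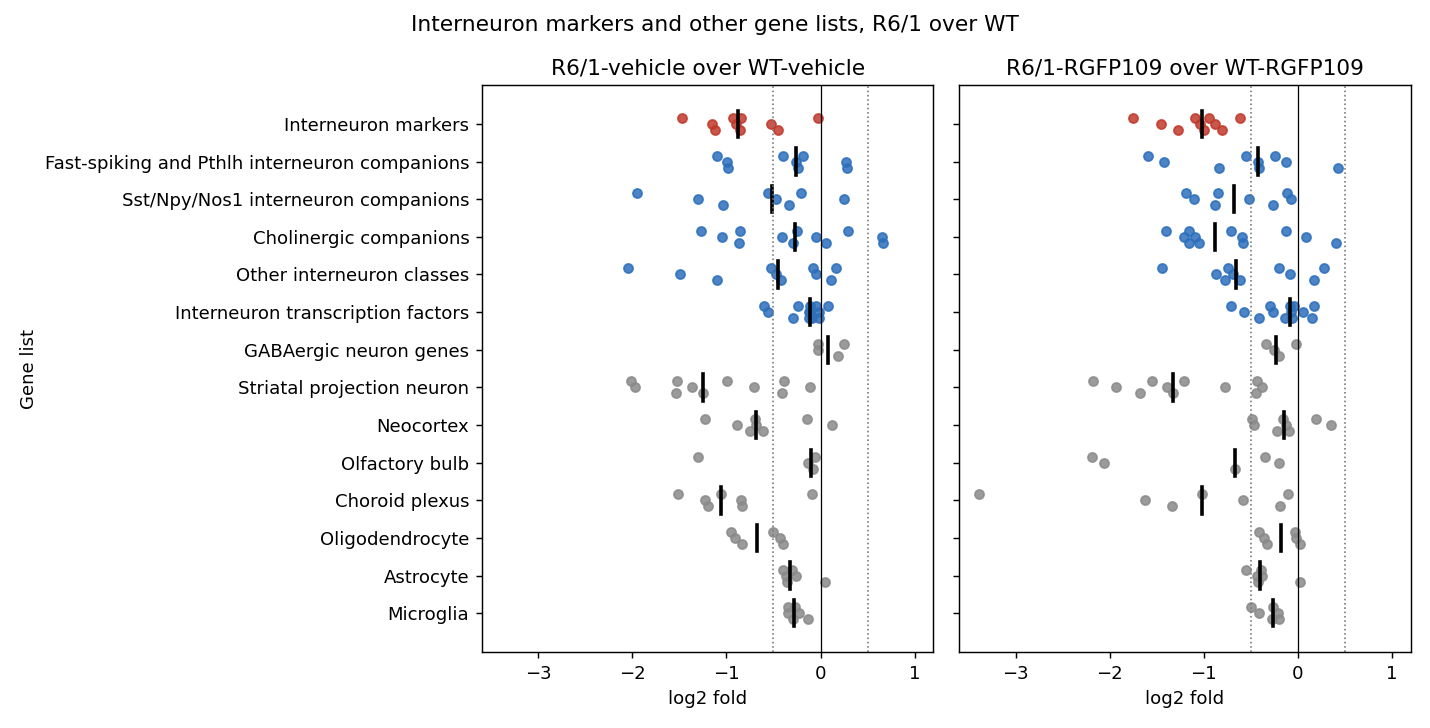
Log2 fold of R6/1 over WT for each gene above the minimum (points) in 14 gene lists, with vehicle (left) and under RGFP109 (right); black bars mark list medians, dotted lines mark log2 folds of 0.5 in either direction, and colours mark interneuron markers (red), other interneuron lists (blue) and lists of other cells and tissues (grey). The median of the interneuron markers was -0.88 and -1.02, that of projection neuron genes -1.25 and -1.33, and that of interneuron transcription factors -0.11 and -0.08.

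Markers of other cells and of neighbouring tissue also differed between the groups, and their values stand here beside the interneuron results. Of all genes, 13.4% were lower in R6/1 with vehicle and 11.7% under RGFP109. Projection neuron markers, which define the striatum, were at a summed 3392 FPKM in WT-vehicle, and 8 of 11 were lower in R6/1 both with vehicle and under RGFP109, with medians of -1.25 and -1.33. Neocortex markers were lower for 6 of 8 genes with vehicle, with a median of -0.69 and summed levels of 396 FPKM in WT and 235 in R6/1. Under RGFP109, 0 of 8 neocortex markers passed the fold and the median was -0.14. Oligodendrocyte markers were lower for 4 of 6 genes with vehicle, with a median of -0.67, and for 0 of 6 under RGFP109, with a median of -0.18. Choroid plexus markers were lower for 6 of 7 genes with vehicle and 5 of 7 under RGFP109, with medians of -1.06 and -1.02. Their summed level ran from 39.9 FPKM in WT-vehicle to 9.33 in R6/1-RGFP109. Globus pallidus markers were lower for 3 of 6 in each genotype comparison, with medians of -0.50 and -0.49, and share Nkx2-1, Lhx6, Npas1 and Kcna1 with the interneuron lists. Olfactory bulb markers were lower for 1 of 4 genes with vehicle and 3 of 5 under RGFP109, with medians of -0.11 and -0.67. Those of thalamus and other subcortical neurons, which include Calb2, were lower for 3 of 7 genes in each, with medians of -0.18 and -0.45, and 1, Slc17a6, was higher with vehicle. Microglia markers were within the fold in both, with medians of -0.28 and -0.27. Of astrocyte markers, 0 of 6 and 1 of 6 were lower, with medians of -0.33 and -0.40, and of endothelial markers 1 of 5 in each, with medians of -0.23 and -0.22. The part of these cells and tissues in the interneuron values was not tested.

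Among the genes of all lists, the profile over the 4 groups that lay nearest to each marker was found by the root mean square difference of log2 levels centred on their mean, over 147 genes and 4 group values. For Npy, the 3 nearest included Tacr1, at a difference of 0.05, and Drd1, the dopamine receptor of striatonigral neurons, at 0.06. For Nos1 the nearest was Ano3, at 0.02, followed by Npy2r and Slc18a3. Sst lay nearest to Npy2r, at 0.05, then Synpo2. Pvalb lay nearest to Slc10a4, at 0.05, then Slc18a3 and Sstr2. Chat lay nearest to Pde10a, a phosphodiesterase of projection neurons, at 0.06, then Rgs9 and Slc5a7. For Slc18a3 the 3 nearest included Ano3 and Pvalb, at 0.05 each. Slc5a7 lay nearest to Syt2, at 0.11, then Drd1 and Tacr1. Kit lay nearest to Aldh1a1, at 0.02, then Lamp5 and Aqp4. Calb2 lay nearest to Cxcl14, at 0.12, then Pdyn and Ndnf. Th lay nearest to Ngfr, at 0.14, then Slc6a3 and Cdhr1 at 0.18 and 0.23. Its nearest gene was farther than that of any other marker, though little farther than that of Calb2. Genes of the projection neuron list thus stood among the 3 nearest of Npy, Chat and Slc5a7.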

How the data were processed

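Total RNA of the striatum was made into TruSeq libraries, and 24 libraries were sequenced in 2 pools of 12 as single reads of 51 bases. The authors aligned the reads to the mouse transcriptome (RefSeq, mm10) with STAR 2.5.0b and estimated FPKM with Cufflinks 2.2.1, and Cuffdiff gave 1 FPKM value per group. The deposited FPKM of the 4 groups stand in 6 pairwise tables. Their remaining columns hold the authors' own fold changes, test statistics, p-values and q-values, which were not used here.

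Group values were analysed with Python 3.11.15, pandas 2.3.3 and numpy 2.4.6. Genes over 0.1 FPKM in at least 1 group of a pair were counted, and log2(FPKM + 0.05) was compared, a scale that understates the change of low genes. For the levels, the RGFP109 groups were scaled to the vehicle table through WT-vehicle. Members and gene lists were chosen with earlier results of these data known. All 10 members were named in each comparison. In the interneuron, catecholamine and receptor lists, up to 4 genes per direction past the fold with vehicle and the 2 most abundant were named, while others outside that rule, such as Cort under RGFP109, were chosen after their values were seen. The fold computation was tested on simulated data. Splitting by sequencing pool was not possible with group values. Some genes that the rule would name are not reported here.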

Additional observations from a re-analysis of the deposited data

How the results depend on the processing

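Alternatives were other minimum folds, pseudocounts of 0 and 1 FPKM, centring on the median of all genes, the other tables by way of a group outside the pair, and other minimum levels. Of 56 counts of interneuron genes past the fold, 53 were within 1.5 times of the reported count. At a minimum log2 fold of 1, 3 genes were lower in R6/1 with vehicle, where 4.45% of all genes were, and 5 under RGFP109, where 3.70% were. At 0.3, 2 genes, Th and Calb2, were higher in WT-RGFP109 over WT-vehicle, where 1017 of 16957 genes were. With a pseudocount of 1 FPKM, Calb2 came inside the fold with vehicle and 7 genes were lower. Of 200 single log2 folds, 0 of those past the fold reversed and 9 moved by 0.1 or more, all with a pseudocount of 1 FPKM, by at most 0.30. The other tables moved them by at most 0.003. With a mean of at least 1 FPKM, fewer of all genes passed the fold: 3.56% were higher in R6/1-RGFP109 over WT-RGFP109, 1.43% lower and 1.57% higher in R6/1-RGFP109 over R6/1-vehicle, and 2.16% lower and 1.74% higher in WT-RGFP109 over WT-vehicle. No paired analysis was possible because the tables hold 1 value per group, and leaving out a replicate was not possible for the same reason.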
